A study of Mus musculus with 99 samples.

Results

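The subunits that set variant forms of Polycomb repressive complex 1 (PRC1) apart were followed through 10 genes, Rybp, Yaf2, Pcgf1, Pcgf3, Pcgf5, Pcgf6, Kdm2b, L3mbtl2, Bcor and E2f6. They were taken by name and not by a threshold on a measured value, though with earlier results of these data known. All 10 were found among the 55341 gene names with RNA-seq counts. Each name stood for 1 gene model, and all 10 had enough reads to be tested in every fit. RNA was measured in 16 libraries of mouse embryonic stem cells (ESCs), 2 biological replicates in each of 8 groups, and chromatin in 70 ChIP-seq libraries of 12 antibodies, for which lists of peaks were analysed.

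The Parental line was ROSA26::creERT2 RING1A−/−; RING1B fl/fl, so all its groups and those of its derivatives lacked RING1A, the paralogue of RING1B. Tamoxifen (OHT) lets the Cre fusion enter the nucleus and delete the floxed Ring1b alleles, and ethanol (−OHT) was the vehicle. RING1B WT and RING1B I53S ESCs were stable clones of the Parental line that in addition expressed FLAG-HA-tagged RING1B from a pCAG vector, either wild-type or with the I53S change, which is described as catalytically dead. MTF2 KO ESCs were Cas9-edited clones of these lines, and Eed fl/fl; ROSA26:creERT2 ESCs, which lose the PRC2 subunit EED with OHT, were derived from blastocysts of mice with those alleles. All cells were grown in medium with 2i, LIF and serum, and OHT was used at 0.5 µM for 72 h according to the sample descriptions. For some MTF2 and JARID2 ChIP-seq libraries the sample names and the paper give 48 h, and those are named as such here. More than one clone of Eed fl/fl ESCs was kept, and which of them gave which library, as well as the number of clones behind the other lines, is not given in the sources used here.

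PRC1 places ubiquitin on a lysine of histone H2A (H2AK119ub1) through its RING1A or RING1B subunit, which pairs with 1 of the PCGF proteins. Variant PRC1 carries RYBP or its paralogue YAF2 in the place taken by a CBX protein in canonical PRC1, and the PCGF protein decides which further subunits join: BCOR and KDM2B with PCGF1, L3MBTL2, E2F6, MGA and MAX with PCGF6, and AUTS2 and casein kinase 2 with PCGF3 or PCGF5. KDM2B binds unmethylated CpG-rich DNA, E2F6 and the MGA-MAX dimer bind their own DNA motifs, and RYBP can bind H2AK119ub1 itself. Polycomb target genes in ESCs typically have CpG-rich promoters that carry H2AK119ub1 together with H3K27me3, the mark of PRC2.

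The promoters of several of these subunit genes are themselves rich in CpG, and their sequences are shown because the results on peaks turn on which of them were bound. RefSeq promoter sequences (build GRCm38.p6, 250 bases before to 50 bases after a start site) matched 7 of the 10 genes, with 13 promoters; Rybp, Yaf2 and Pcgf1 had no entry. Capitals mark CpG dinucleotides, and every sequence runs 5′ to 3′ on the strand of its gene. Pcgf5 is shown at its 3 RefSeq start sites because only the upstream one and the downstream one had peaks over them.
Pcgf5 upstream start, plus strand, chr19:36348079-36348378: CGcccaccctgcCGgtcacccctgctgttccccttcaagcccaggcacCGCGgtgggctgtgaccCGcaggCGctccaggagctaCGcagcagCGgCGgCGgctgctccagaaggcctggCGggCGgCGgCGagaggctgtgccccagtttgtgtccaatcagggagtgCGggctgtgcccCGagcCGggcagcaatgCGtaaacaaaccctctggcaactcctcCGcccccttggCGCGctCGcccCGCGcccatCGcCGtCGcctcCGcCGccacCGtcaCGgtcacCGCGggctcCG
Pcgf5 middle start, plus strand, chr19:36378817-36379116: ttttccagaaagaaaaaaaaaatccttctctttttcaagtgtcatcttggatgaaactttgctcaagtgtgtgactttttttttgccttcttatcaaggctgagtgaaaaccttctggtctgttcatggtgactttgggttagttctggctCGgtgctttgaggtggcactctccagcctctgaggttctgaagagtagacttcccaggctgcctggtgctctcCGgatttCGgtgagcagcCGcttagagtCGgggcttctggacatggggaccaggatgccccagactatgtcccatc
Pcgf5 downstream start, plus strand, chr19:36409498-36409797: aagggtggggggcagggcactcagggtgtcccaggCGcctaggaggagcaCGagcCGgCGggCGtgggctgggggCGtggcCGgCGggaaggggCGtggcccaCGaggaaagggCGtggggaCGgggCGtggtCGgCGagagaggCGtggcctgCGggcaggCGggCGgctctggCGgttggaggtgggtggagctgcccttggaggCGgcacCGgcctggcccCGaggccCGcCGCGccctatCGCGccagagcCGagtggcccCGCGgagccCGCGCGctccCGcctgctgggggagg
The upstream promoter held 34 CpG, the middle one 5 and the downstream one 35, where the median over 32851 promoters was 7. Peaks of 10 antibodies overlapped the upstream promoter, peaks of MTF2 and SUZ12 the downstream one, and none the middle one.

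E2f6 and Bcor are shown because PRC1 and PRC2 peaks lay over both promoters, and L3mbtl2 because no peak of any antibody lay over it or within 2.5 kb of it.
E2f6, plus strand, chr12:16810715-16811014: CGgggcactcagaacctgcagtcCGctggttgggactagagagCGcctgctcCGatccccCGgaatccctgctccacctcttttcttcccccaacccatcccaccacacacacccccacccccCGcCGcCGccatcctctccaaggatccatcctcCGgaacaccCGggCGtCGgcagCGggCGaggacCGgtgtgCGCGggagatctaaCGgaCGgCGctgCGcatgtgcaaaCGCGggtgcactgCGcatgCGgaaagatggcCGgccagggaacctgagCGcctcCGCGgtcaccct
Bcor, minus strand, chrX:12160306-12160605: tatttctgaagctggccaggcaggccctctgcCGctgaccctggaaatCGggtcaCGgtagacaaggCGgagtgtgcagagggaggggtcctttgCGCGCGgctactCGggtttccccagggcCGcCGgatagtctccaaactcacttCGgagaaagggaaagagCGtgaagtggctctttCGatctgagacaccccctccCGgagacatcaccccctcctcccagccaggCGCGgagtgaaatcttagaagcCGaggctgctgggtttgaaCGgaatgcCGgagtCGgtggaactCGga
L3mbtl2, plus strand, chr15:81663639-81663938: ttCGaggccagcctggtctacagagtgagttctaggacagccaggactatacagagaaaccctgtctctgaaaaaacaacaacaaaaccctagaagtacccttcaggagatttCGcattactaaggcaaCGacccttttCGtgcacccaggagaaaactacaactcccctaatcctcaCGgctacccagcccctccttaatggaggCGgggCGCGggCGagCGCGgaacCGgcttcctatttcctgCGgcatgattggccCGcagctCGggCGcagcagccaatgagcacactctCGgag
E2f6 had 29 CpG with peaks of 10 antibodies, Bcor had 21 with peaks of 7, and L3mbtl2 had 17 with none. Kdm2b is shown at 2 start sites, the one near its 5′ end with peaks of 8 antibodies and one deep in the gene that holds the most CpG of all 13 promoters.
Kdm2b near the 5′ end, minus strand, chr5:122988458-122988757: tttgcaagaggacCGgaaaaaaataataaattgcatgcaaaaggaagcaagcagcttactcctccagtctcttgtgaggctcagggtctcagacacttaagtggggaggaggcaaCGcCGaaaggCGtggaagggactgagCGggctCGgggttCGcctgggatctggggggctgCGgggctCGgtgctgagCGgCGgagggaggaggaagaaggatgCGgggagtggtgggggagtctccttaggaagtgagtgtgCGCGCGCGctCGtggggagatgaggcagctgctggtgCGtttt
Kdm2b internal start, minus strand, chr5:122900301-122900600: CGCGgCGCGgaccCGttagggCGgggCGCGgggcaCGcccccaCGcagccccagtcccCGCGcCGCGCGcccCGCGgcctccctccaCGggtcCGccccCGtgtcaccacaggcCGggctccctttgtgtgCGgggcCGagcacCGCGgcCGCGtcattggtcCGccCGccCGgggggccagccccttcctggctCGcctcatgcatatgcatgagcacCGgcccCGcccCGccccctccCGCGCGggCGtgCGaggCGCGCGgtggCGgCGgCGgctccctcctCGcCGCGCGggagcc
The 5′ promoter held 18 CpG and the internal one 49, with peaks of MTF2 and SUZ12 over the latter. For Rybp the 200 bases at the centre of its PCGF6 peak in Parental ESCs without OHT are shown, since PCGF6 was found there in all 4 conditions.
Rybp PCGF6 peak centre, minus strand, chr6:100287932-100288131: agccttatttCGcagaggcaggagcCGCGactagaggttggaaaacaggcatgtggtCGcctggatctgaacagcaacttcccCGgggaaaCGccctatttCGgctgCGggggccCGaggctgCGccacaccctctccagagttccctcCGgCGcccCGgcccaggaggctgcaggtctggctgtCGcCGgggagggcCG
That stretch holds 16 CpG. The letters TCACGTGA and, within them, CACGTG (the E-box that MAX dimers can bind) were searched on both strands, as were TTCCCGCC and GGCGGGAA (the same E2F6 core on either strand). Neither the E-box nor its longer form was in any of the 13 promoters, where 7.15% and 0.974% of all 32851 promoters hold them. The E2F6 core was found in 1, at −168 from the downstream start of Pcgf5, and in 2.19% of all promoters. None of these letters was in the 200 bases at the centre of the PCGF6 peaks of Rybp, E2f6 and Pcgf6, and of the 7880 PCGF6 peak centres of that library 13% held CACGTG and 3.6% the E2F6 core.

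The RNA libraries held 6957248 to 12743460 counted reads, and a member had between 39 counts, for Pcgf5, and 2211, for L3mbtl2, in a library. Replicates of a group differed by more than counting error, the chi-square over genes being 6.48 to 25.7 times its degrees of freedom. The Eed fl/fl libraries detected 43762 to 46757 gene names against 23578 to 28032 in the other 12, so they were fitted apart and levels are not compared across. Ring1, the gene of RING1A, had 12 to 52 counts in the 12 libraries of RING1A−/− lines and 37 to 67 in those of Eed fl/fl ESCs. Rnf2, the gene of RING1B, had 198 and 257 CPM in Parental ESCs without OHT and 144 and 167 with OHT. It fell by 0.55 ± 0.19 on the log2 scale (SE, n = 2 per group) (edgeR adjusted p = 0.0333), counts per gene not being able to show the deleted exons alone. Eed had 255 and 173 CPM in Eed fl/fl ESCs without OHT and 67.1 and 43.7 with OHT, a log2 difference of −1.95 ± 0.32 (SE, n = 2 per group) with an edgeR adjusted p of 0.0864. All 7 pluripotency markers were expressed in every library, and 6 of 7 fell with OHT in Parental and in RING1B I53S ESCs. With OHT their summed level was 1573 to 1674 CPM (counts scaled to the library size) in Parental ESCs, against 3309 to 3991 without. Of the markers of other cell types that were tested, 5 of 5 of primitive endoderm, 4 of 6 of trophoblast and 4 of 4 of fibroblasts rose in Parental ESCs, and of 3 of neural progenitors 2 rose and 1 fell. Their summed levels went from 2.36 to 2.47 without OHT to 33.1 to 33.2 CPM with OHT for primitive endoderm, from 165 to 196 up to 384 to 390 for trophoblast, and from 23.5 to 24.0 up to 66.1 to 68.8 for fibroblasts, while for neural progenitors they were 69.6 to 99.2 without and 58.2 to 67.9 with OHT. With OHT these ranges were 24.4 to 26.8, 290 to 327, 59.4 to 71.7 and 69.6 to 74.3 CPM in RING1B I53S ESCs, and in RING1B WT ESCs 5.33 to 8.59, 212 to 235, 33.0 to 34.3 and 47.6 to 54.8. Without OHT they were 2.40 to 3.94, 172 to 211, 24.7 to 25.5 and 72.4 to 74.6 CPM in RING1B I53S ESCs. In untreated RING1B WT ESCs they were 2.08 to 3.32, 159 to 170, 16.2 to 21.9 and 64.6 to 72.5 CPM. By the edgeR test 3 of 6 trophoblast, 1 of 4 fibroblast and 1 of 3 neural markers rose in RING1B WT ESCs, and 0 of 5 of primitive endoderm. Gata6 and Sox7 had 0 counts in both untreated Parental libraries, and Col3a1 in all 4 Parental ones. The part of such cells in the results that follow was not tested, and in bulk RNA fewer cells of a type and less RNA per cell cannot be told apart.

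The genes spanned a wide range of levels in untreated cells. Levels are given as CPM per kilobase of exon, which allows genes of different length to be compared. In Parental ESCs without OHT, L3mbtl2 had the highest mean level at 26.9 CPM per kb, followed by Pcgf1 and Rybp, both at 11.2, whose libraries overlapped. Pcgf6 at 6.46, Yaf2 at 6.15, Kdm2b at 5.94 and Bcor at 5.39 formed a middle group in which each overlapped the next. Pcgf3 at 2.92, E2f6 at 1.44 and Pcgf5 at 0.529 CPM per kb came last, each apart from the next. Among the PCGF genes the order was therefore Pcgf1, Pcgf6, Pcgf3 and Pcgf5. With OHT, Bcor at 15.5 CPM per kb stood beside L3mbtl2 at 16.8 at the top, their libraries overlapping, and Pcgf5 at 2.01 was close to E2f6 at 2.25. In Eed fl/fl ESCs without OHT the same genes closed the order, with L3mbtl2 at 31.2 and Pcgf1 at 16.3 leading and Pcgf5 at 0.79 CPM per kb last.

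**Figure D1:**
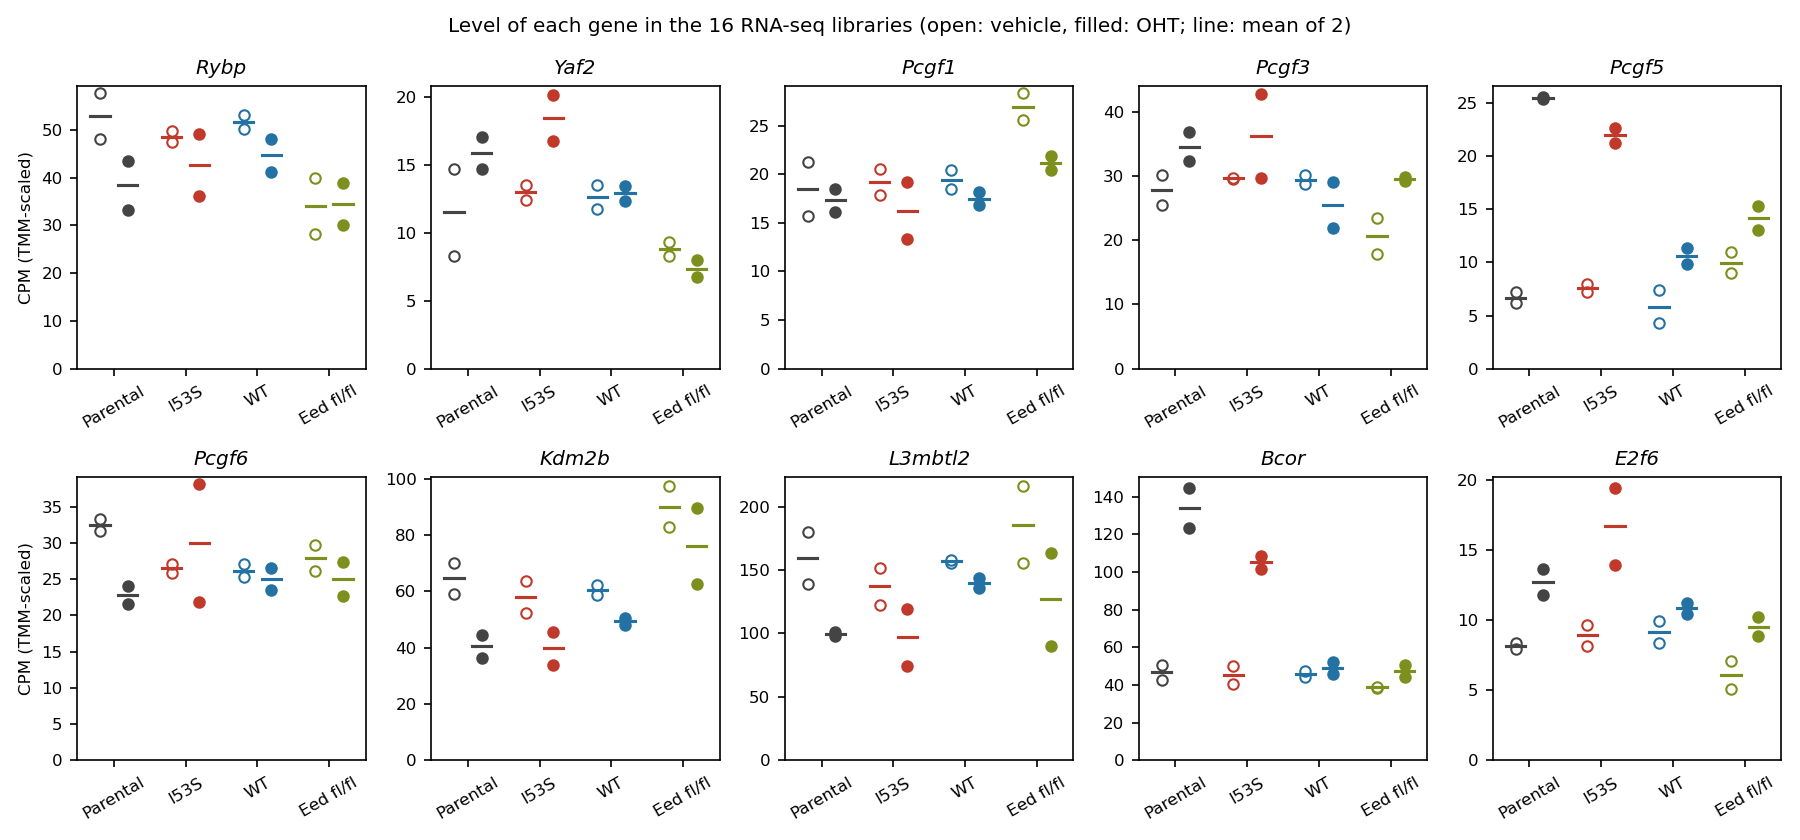
Level of each of the 10 genes in every RNA library, as CPM on a linear axis, grouped by line and by OHT, with 1 point per library and a line at the mean of the 2 replicates. Bcor and Pcgf5 are higher with OHT in Parental and RING1B I53S ESCs, while in RING1B WT ESCs Bcor overlaps between the groups, from 44.3 to 47.4 CPM without and 45.8 to 52.3 with OHT.

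Of the 10 genes, 4 changed in Parental ESCs with OHT, in opposite directions. Pcgf5 and Bcor rose and Kdm2b and L3mbtl2 fell (edgeR's quasi-likelihood test on all 18154 tested genes, Benjamini-Hochberg adjusted p under 0.05). These are 2 genes higher and 2 lower of 10, beside 21.9% higher and 12.4% lower of all genes tested, so neither count stood far from that of genes in general. The median log2 fold change was 0.11 over the members and 0.03 over all genes tested. In RING1B I53S ESCs, Pcgf5, Bcor and E2f6 rose, 3 of 10 beside 18.3% of all genes, and none of the 10 fell by this test beside 8.49% (5 members in either direction had an unadjusted p under 0.05, and DESeq2 and limma-voom called Kdm2b lower), with a median of 0.23 over the members and 0.01 over all genes. Without RING1B I53S +OHT replicate 2, 5 members passed there, Kdm2b and L3mbtl2 being lower, and in Parental ESCs 2 passed without −OHT replicate 1 and 2 without +OHT replicate 1, Pcgf5 and Bcor each time. In RING1B WT ESCs no member passed the edgeR test, where 2.27% of all genes did in either direction. There 1 member, Pcgf5, had an unadjusted p under 0.05, and DESeq2 and limma-voom called none, with a median of −0.11 over the members and 0.02 over all genes. At the study's own thresholds, which add a log2 change of 1.5 or more in either direction, Pcgf5 and Bcor were left in Parental ESCs, beside 15.1% of all genes called higher, and Pcgf5 in RING1B I53S ESCs, beside 12.7%. Bcor dropped below that size in Parental ESCs when −OHT replicate 1 (1.37) or +OHT replicate 2 (1.40) was left out, and Pcgf5 in RING1B I53S ESCs when −OHT replicate 2 (1.45) or +OHT replicate 1 (1.49) was.

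**Figure D2:**
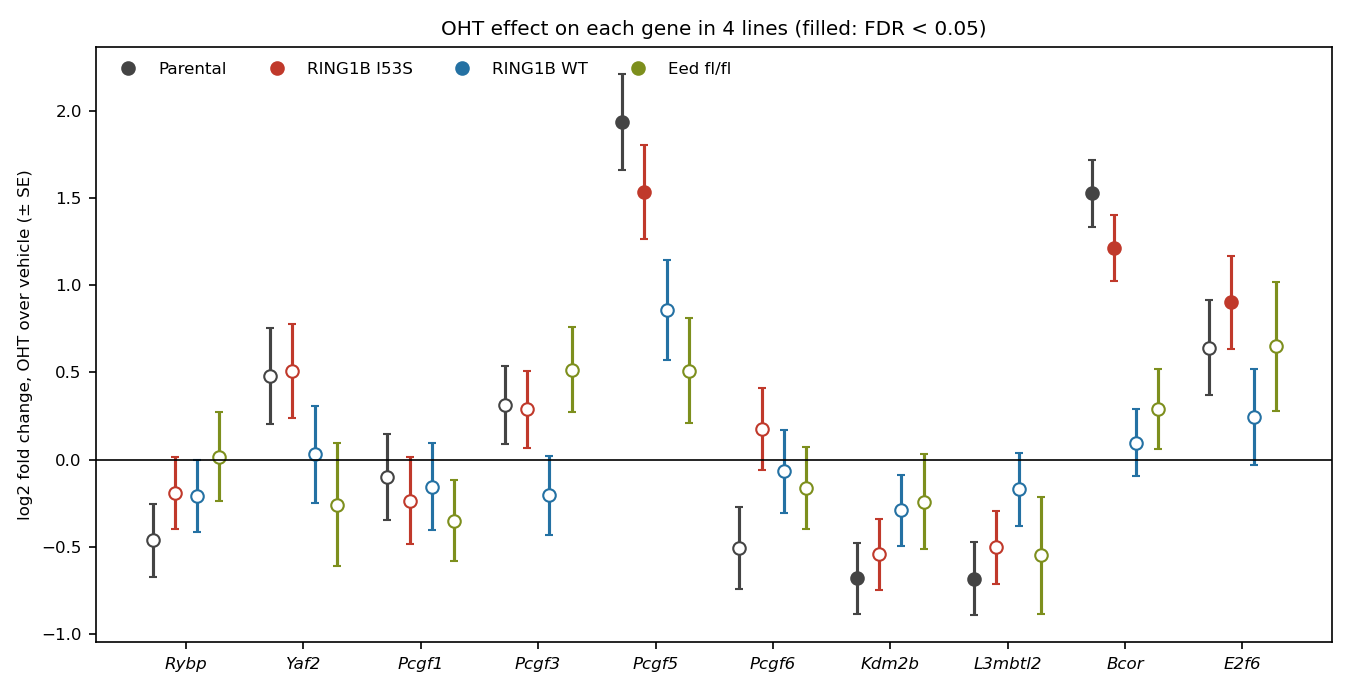
Log2 fold change with OHT against vehicle for each of the 10 genes in Parental, RING1B I53S, RING1B WT and Eed fl/fl ESCs from edgeR, with bars of 1 standard error and filled points where the adjusted p was under 0.05. Pcgf5 and Bcor lie highest in Parental and RING1B I53S ESCs, at 1.93 and 1.52 and at 1.53 and 1.21, and no point is filled for RING1B WT or Eed fl/fl ESCs.

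Of the PCGF genes, which name the variant complexes, only Pcgf5 passed the test with the 12 libraries fitted together. It had 6.19 and 7.17 CPM in the 2 Parental libraries without OHT and 25.5 and 25.3 with OHT. Both RING1B I53S libraries had 7.96 and 7.20 CPM without and 22.7 and 21.3 with OHT, and those of RING1B WT 7.38 and 4.28 without and 9.86 and 11.3 with OHT. All libraries with OHT thus lay above those without in each line, and the RING1B WT ones stayed below the treated libraries of both other lines. With 2 libraries a group such an order can also arise without a difference, and its share over all genes was not counted. The log2 fold change was 1.93 ± 0.28 (SE, n = 2 per group) in Parental ESCs, a 3.82-fold rise (edgeR adjusted p = 1.98e-05). In RING1B I53S ESCs it was 1.53 ± 0.27 (edgeR adjusted p = 0.000257), and in RING1B WT ESCs 0.86 ± 0.29, which did not pass (edgeR adjusted p = 0.122). Pcgf1, the partner of BCOR and KDM2B, had 15.7 to 21.3 CPM without and 16.1 to 18.5 with OHT in Parental ESCs, overlapping ranges, and a log2 fold change of −0.10 ± 0.25 with an edgeR adjusted p of 0.789. Pcgf3, whose product forms complexes like those of PCGF5, had log2 fold changes of 0.31, 0.29 and −0.20 in Parental, RING1B I53S and RING1B WT ESCs, and Pcgf6 −0.51, 0.18 and −0.07, none past the test. The lowest edgeR adjusted p of these was 0.105, for Pcgf6 in Parental ESCs, where its libraries had 31.6 and 33.4 CPM without and 24.1 and 21.6 with OHT. With the 4 Parental libraries fitted alone Pcgf6 did pass, at −0.52 with an edgeR adjusted p of 0.0387.

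Bcor and Kdm2b, whose products sit in the same PCGF1 complex, moved in opposite directions. BCOR is the corepressor that binds PCGF1. Bcor had 42.6 and 50.8 CPM in Parental ESCs without OHT and 123.7 and 145 with OHT. The RING1B I53S libraries held 50.2 and 40.6 CPM without and 102 and 109 with OHT, and in RING1B WT ESCs 44.3 and 47.4 without and 45.8 and 52.3 with OHT. The 4 treated libraries of Parental and RING1B I53S ESCs thus stood above 100 CPM and all the others at or below 52.3. The log2 fold change was 1.52 ± 0.19 (SE, n = 2 per group) in Parental (edgeR adjusted p = 4.89e-06), 1.21 ± 0.19 in RING1B I53S (edgeR adjusted p = 8.49e-05) and 0.10 ± 0.19 in RING1B WT ESCs (edgeR adjusted p = 0.86). With 1 library left out at a time, the Parental value lay between 1.37 and 1.64 and the RING1B I53S value between 1.06 and 1.37.

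Kdm2b encodes the CpG-binding demethylase that brings the PCGF1 complex to CpG islands. It had 70.2 and 59.0 CPM in Parental ESCs without OHT and 36.4 and 44.5 with OHT. The level in RING1B I53S ESCs was 63.5 and 52.2 CPM without and 33.9 and 45.5 with OHT, and in RING1B WT ESCs 62.1 and 58.7 without and 50.6 and 48.2 with OHT. Treated libraries were below untreated ones in all 3 lines, an order that 2 libraries a group can give without a difference. Its share over all genes was not counted, and Kdm2b passed the edgeR test on the 12 libraries in Parental ESCs alone. In Parental ESCs Kdm2b fell by 0.68 ± 0.20 on the log2 scale (SE, n = 2 per group; edgeR adjusted p = 0.013). Leaving out Parental −OHT replicate 1 moved the edgeR adjusted p to 0.0907, and leaving out +OHT replicate 1 moved it to 0.164. Its value was −0.54 ± 0.20 on the log2 scale in RING1B I53S ESCs (edgeR adjusted p = 0.0523) and −0.29 ± 0.20 in RING1B WT ESCs (edgeR adjusted p = 0.525). Exons of Kdm2b overlap those of Rnf34, on the opposite strand, by 627 bp, and strand was ignored in counting, so reads in that stretch cannot be told apart. Rnf34 itself had log2 fold changes of −0.80 in Parental (edgeR adjusted p = 0.00468) and −0.99 in RING1B I53S ESCs (edgeR adjusted p = 0.00129). The antisense transcript A930024E05Rik, which shares 199 bp of exon with Kdm2b, had 19 and 10 counts in Parental ESCs without and 1 and 3 with OHT.

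Of the genes of the PCGF6 complex, L3mbtl2 fell in Parental ESCs and E2f6 rose in RING1B I53S ESCs. L3MBTL2 is a chromatin protein of the complex with MBT domains. L3mbtl2 had 180 and 139 CPM in Parental ESCs without OHT and 97.9 and 101 with OHT. The RING1B I53S libraries had 152 and 122 CPM without and 74.4 and 119.3 with OHT, and in RING1B WT ESCs 156 and 158 without and 136 and 143 with OHT. Treated libraries were below untreated ones in all 3 lines here too, an order whose share over all genes was not counted. L3mbtl2 passed the edgeR test in Parental ESCs alone. In Parental ESCs it fell by 0.68 ± 0.21 on the log2 scale (SE, n = 2 per group; edgeR adjusted p = 0.0153). This rested on single libraries, since leaving out −OHT replicate 1 of Parental ESCs gave an edgeR adjusted p of 0.132, +OHT replicate 1 gave 0.104 and +OHT replicate 2 gave 0.0793. On the log2 scale the change was −0.50 ± 0.21 in RING1B I53S (edgeR adjusted p = 0.0825) and −0.17 ± 0.21 in RING1B WT ESCs (edgeR adjusted p = 0.752). Exons of L3mbtl2 overlap those of Chadl on the opposite strand by 1023 bp, and Chadl had a log2 fold change of 0.85 in Parental ESCs (edgeR adjusted p = 0.0398), with 53 to 120 counts in the 4 libraries.

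E2f6 encodes an E2F factor that represses transcription without binding RB proteins. It had 8.39 and 7.91 CPM in Parental ESCs without OHT and 13.7 and 11.8 with OHT. For RING1B I53S ESCs the level was 9.66 and 8.15 CPM without and 19.5 and 13.9 with OHT, and in RING1B WT ESCs 9.95 and 8.34 without and 10.5 and 11.2 with OHT. Treated libraries were above untreated ones in all 3 lines, again an order whose share over all genes was not counted. E2f6 passed the edgeR test in RING1B I53S ESCs alone. The log2 fold change was 0.90 ± 0.27 in RING1B I53S ESCs (SE, n = 2 per group; edgeR adjusted p = 0.0155), and leaving out −OHT replicate 2 of that line gave an edgeR adjusted p of 0.141 and +OHT replicate 1 one of 0.127. It was 0.64 ± 0.27 in Parental ESCs, just short of the test (edgeR adjusted p = 0.0737), and 0.24 ± 0.28 in RING1B WT ESCs (edgeR adjusted p = 0.729). The values in Parental and RING1B I53S ESCs did not differ by the test of their difference (0.26 ± 0.38, edgeR adjusted p = 1).

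Rybp and Yaf2, the paralogues of which 1 is found in each variant PRC1, did not pass the test in these lines. Rybp had 48.1 and 57.7 CPM in Parental ESCs without OHT and 33.2 and 43.6 with OHT. The log2 fold change was −0.46 ± 0.21 (SE, n = 2 per group; edgeR adjusted p = 0.0922), and −0.19 and −0.21 in RING1B I53S and RING1B WT ESCs. Yaf2 had 8.31 and 14.7 CPM in Parental ESCs without OHT and 14.7 and 17.1 with OHT, with a log2 fold change of 0.48 ± 0.27 (edgeR adjusted p = 0.189). Its level in RING1B I53S ESCs was 12.4 and 13.5 CPM without and 16.8 and 20.1 with OHT, a log2 fold change of 0.51 ± 0.27 (edgeR adjusted p = 0.173), and in RING1B WT ESCs the value was 0.03 ± 0.28. Single libraries weighed on these values, since Yaf2 in Parental ESCs was at 0.08 when −OHT replicate 1 was left out and at 0.90 when replicate 2 was, and Rybp in RING1B I53S ESCs was at 0.0052 when +OHT replicate 2 was.

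The lines were next compared with each other with OHT, which asks whether wild-type or catalytically inactive RING1B kept expression as it was. These comparisons share their treated libraries with the OHT effects above. RING1B WT ESCs had less Bcor than Parental ESCs, by −1.45 ± 0.19 on the log2 scale (SE, n = 2 per group; edgeR adjusted p = 3.86e-05), and less Pcgf5, by −1.26 ± 0.27 (edgeR adjusted p = 0.00251). Both are 2 of 10 members, beside 12.4% of all genes lower. Without RING1B WT +OHT replicate 1 the edgeR adjusted p of Pcgf5 was 0.057. RING1B I53S ESCs had more Bcor than RING1B WT ESCs, by 1.10 ± 0.19 (edgeR adjusted p = 0.000807), and more Pcgf5, by 1.05 ± 0.27 (edgeR adjusted p = 0.0121), 2 of 10 members beside 9.73% of all genes higher. For Pcgf5 that adjusted p became 0.143 when RING1B WT +OHT replicate 1 was left out and 0.0623 when replicate 2 was, and 4 members passed without RING1B I53S +OHT replicate 2, Pcgf3 and L3mbtl2 being the added ones. Between RING1B I53S and Parental ESCs with OHT no member passed the edgeR test, beside 0.292% of all genes in either direction, none had an unadjusted p under 0.05, and DESeq2 and limma-voom called none. The lowest unadjusted p was 0.0736, for Bcor, with a log2 difference of −0.35 ± 0.19. Its levels were 102 and 109 CPM in RING1B I53S against 123.7 and 145 in Parental ESCs. These do not overlap, and the share of all genes with such an order was not counted.

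The test of the difference in OHT effect between lines called Bcor alone. Its effect was smaller in RING1B WT than in Parental ESCs by −1.43 ± 0.27 on the log2 scale (SE, n = 2 per group; edgeR adjusted p = 0.006), 1 of 10 members beside 1.27% of all genes with a lower effect. When RING1B WT +OHT replicate 1 was left out the edgeR adjusted p was 0.0726, and with Parental +OHT replicate 2 left out it was 0.0648. For Pcgf5 the difference was −1.08 ± 0.40 with an edgeR adjusted p of 0.18, so its effects in the 2 lines were not shown to differ. Between RING1B I53S and Parental ESCs no member differed in its OHT effect by edgeR, beside 0% of all genes, none had an unadjusted p under 0.05, and DESeq2 and limma-voom called none. For Bcor this difference was −0.31 ± 0.27 and for Pcgf5 −0.40 ± 0.38.

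Without OHT no difference between the 3 lines was found in these genes. No member passed the edgeR test between RING1B I53S and Parental ESCs (beside 0.303% of all genes in either direction), between RING1B WT and Parental ESCs (0.0551%) or between RING1B I53S and RING1B WT ESCs (0.165%), none had an unadjusted p under 0.05, and DESeq2 and limma-voom called none. For Bcor the log2 differences were −0.04, −0.03 and −0.01, each ± 0.19 (SE, n = 2 per group). For Pcgf5 they were 0.19 ± 0.28, −0.19 ± 0.29 and 0.38 ± 0.29.

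Loss of EED, without which PRC2 cannot methylate histone H3, was measured in its own ESC line. No member passed the edgeR test without a term for the replicate number in Eed fl/fl ESCs, beside 0.0119% of 25170 genes tested, none had an unadjusted p under 0.05, and DESeq2 and limma-voom called none. Eed itself, the deleted gene, did not pass this edgeR test either, so a member that failed it is not shown to be unchanged. The median log2 fold change was −0.07 over the members. Bcor had 38.5 and 39.1 CPM without and 44.2 and 50.7 with OHT, and a log2 fold change of 0.29 ± 0.23 (SE, n = 2 per group). Pcgf5 had 10.98 and 8.97 CPM without and 13.1 and 15.3 with OHT, 0.51 ± 0.30 on the log2 scale. For both, the treated libraries were above the untreated ones without passing the test, the edgeR adjusted p being 0.851 and 0.837. The share of all genes with that order was not counted. E2f6 had 5.06 and 7.05 CPM without and 10.2 and 8.84 with OHT (0.65 ± 0.37), and Pcgf3 23.4 and 17.8 without and 29.8 and 29.2 with OHT (0.52 ± 0.24). L3mbtl2 had 216 and 155 CPM without and 164 and 90.2 with OHT, ranges that overlap, and a log2 fold change of −0.55 ± 0.33. The biological coefficient of variation was 0.251 here against 0.181 in the other 12 libraries, and the size of the OHT effect was not tested between the 2 sets.

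Genes of other subunits were read from lists of fixed membership. Of 20 further subunits of variant PRC1, 1 rose and 9 fell in Parental ESCs with OHT (edgeR adjusted p under 0.05), with a median log2 fold change of −0.39, where 21.9% of all genes were higher and 12.4% lower. The one that rose was Bcorl1, the paralogue of Bcor, at 2.07 ± 0.28 (SE, n = 2 per group), and those with the lowest adjusted p among the falling were Usp7, a deubiquitinase of the PCGF1 complex, at −0.79 ± 0.16, and Max, a DNA-binding subunit of the PCGF6 complex, at −0.92 ± 0.20. The same list in RING1B I53S ESCs had 1 that rose and 6 that fell, with Bcorl1 at 1.57 ± 0.27. Of 14 genes of canonical PRC1 and its core, 6 rose and 4 fell in Parental and 5 rose and 2 fell in RING1B I53S ESCs, where 18.3% of all genes were higher and 8.49% lower. Among them Cbx8, which encodes a subunit that binds methylated histone H3, rose by 4.55 ± 0.45, and Phc1, which encodes a subunit that polymerizes, was at −1.86 ± 0.18 in Parental ESCs. The 14 genes include Ring1, already lost in these lines, and Rnf2, the gene that OHT deletes. Rnf2 is 1 of the 4 that fell in Parental ESCs, so that fall was set by the design. Of 9 genes of H2A deubiquitinases, which take the mark away, and of partners of the deubiquitinase BAP1, none rose and 2 fell in each of these lines. In Parental ESCs these were the partner genes Asxl2 at −1.20 ± 0.24 and Asxl1 at −0.59 ± 0.19. The deubiquitinase gene Mysm1 was at −0.46 ± 0.19 there, not past the test. In RING1B I53S ESCs those that fell were Asxl2 at −0.67 ± 0.23 and Mysm1 at −0.71 ± 0.19. No gene of the 3 lists passed the edgeR test in RING1B WT or Eed fl/fl ESCs.

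The chromatin over the 10 genes was read from peak lists, each peak with a score, the −log10 of the MACS2 p-value, which was at least 10 in every list. A peak was assigned to a gene when it overlapped the gene or the 2.5 kb on either side, so long genes had more room for peaks. There was 1 library for each antibody and condition, or 2 for MTF2 and JARID2 in RING1B WT and RING1B I53S ESCs with OHT for 72 h, so differences between conditions have no test. The lists hold no reads, so depth is unknown, and both the number of peaks and their scores move with depth. Of the 700 pairs of a gene and a library, 212 held a peak (30.3%). The share of protein-coding genes with a peak ran from 0.0683% to 54.6% over these libraries, and its value over all pairs was not computed. PRC1 itself was followed with antibodies to RING1B, PCGF2, CBX7, RYBP and PCGF6, of which the last 2 recognise products of these genes.

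The number of antibodies with a peak differed between the genes, and the same number over all coding genes was not computed. Bcor, Pcgf5 and E2f6 had a peak of 11 of the 12 antibodies in at least 1 library, Kdm2b of 10 and Yaf2 of 9. Rybp had peaks of 4 antibodies, Pcgf3 of 3, and Pcgf1 and Pcgf6 of 2 each. L3mbtl2 had no peak in any of the 70 libraries, while its promoter sequence above holds 17 CpG. A wider window changes this, since within 5 kb L3mbtl2 had peaks of H2AK119ub1, H3K27me3, SUZ12, MTF2 and JARID2 in untreated Parental ESCs. AEBP2 was the antibody lacking for Pcgf5 and E2f6, and RYBP for Bcor. The 4 lists of input DNA from MTF2 KO ESCs, with 9 to 19 peaks each, held none at these genes.

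**Figure D3:**
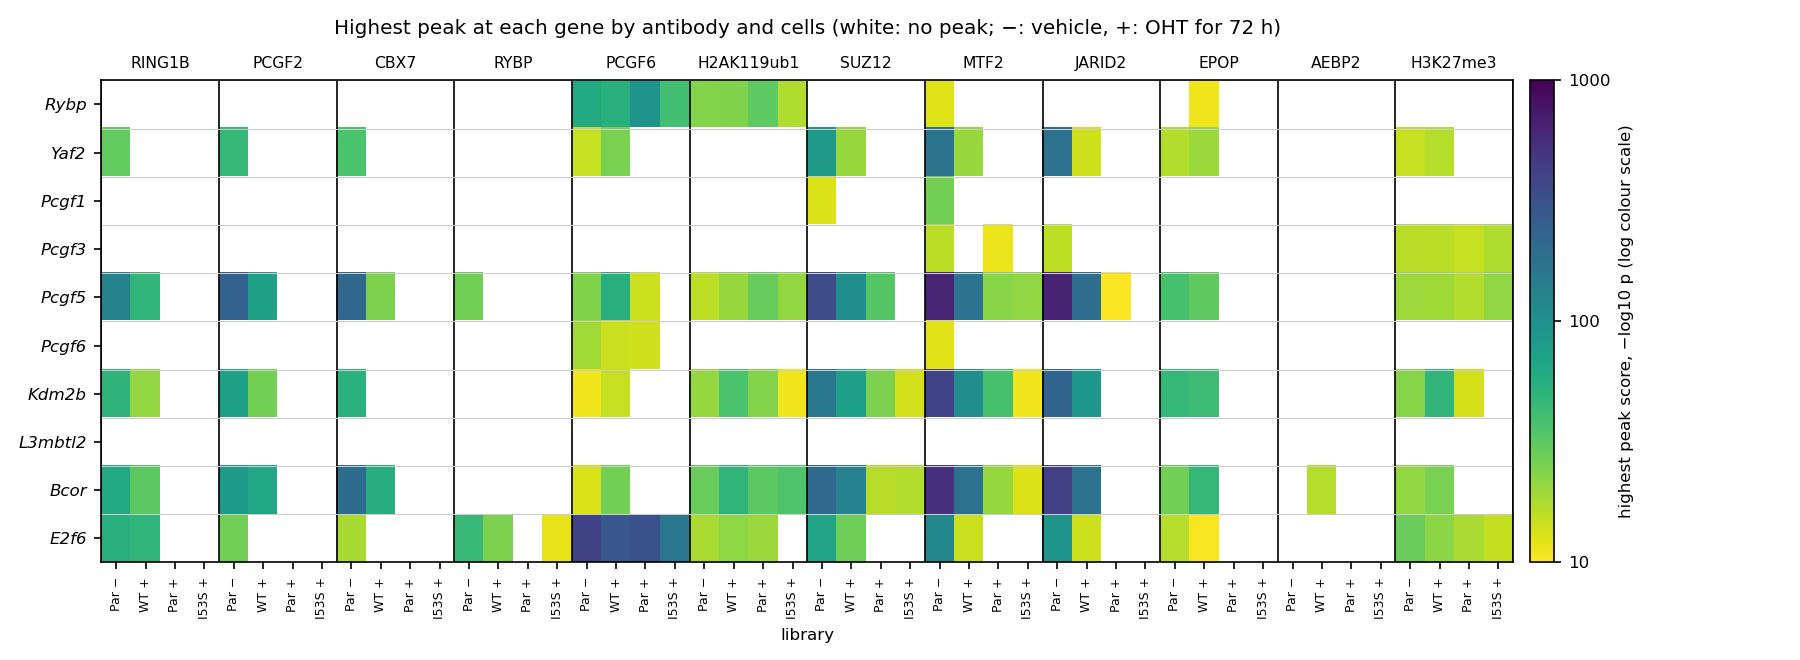
Highest peak score at each of the 10 genes, as the −log10 of the MACS2 p-value, for each antibody in Parental −OHT, Parental +OHT, RING1B WT +OHT and RING1B I53S +OHT ESCs at 72 h, from 1 library per field (replicate 1 where there are 2), with empty fields where no peak was called. RING1B, PCGF2 and CBX7 fields are filled at Pcgf5, Kdm2b and Bcor in untreated Parental ESCs and empty at all 10 genes in Parental and RING1B I53S ESCs with OHT, while the PCGF6 fields of E2f6 and Rybp are filled in all 4 conditions. Parental ESCs with OHT lack RING1B itself.

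RING1B peaks lay at Yaf2, Pcgf5, Kdm2b, Bcor and E2f6 in Parental ESCs without OHT, 5 of 10 members beside 19.5% of 21951 protein-coding genes. In RING1B WT ESCs with OHT they lay at 4 of these, without Yaf2 (15.0% of coding genes), and in Parental and RING1B I53S ESCs with OHT at none (2.36% and 4.22%). PCGF2 and CBX7, subunits of canonical PRC1, had peaks at the same 5 genes in untreated Parental ESCs, beside 18.7% and 18.9% of coding genes. In RING1B WT ESCs PCGF2 peaks were at Pcgf5, Kdm2b and Bcor and CBX7 peaks at Pcgf5 and Bcor, beside 13.9% and 9.94% of coding genes. Neither had a peak at any member in Parental or RING1B I53S ESCs with OHT, where only 0.392% and 2.58% of coding genes held a PCGF2 peak and 0.278% and 0.169% a CBX7 peak, so 0 of 10 is close to the share of genes in general. The lists of Parental ESCs with OHT were short, with 690 RING1B, 89 PCGF2 and 59 CBX7 peaks in all. RING1B itself is deleted in these cells, so the lack of its peaks there was set by the design. The paper also reports that PCGF2 protein was destabilized without RING1B and rescued by RING1B WT and I53S.

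H2AK119ub1 peaks were called at Rybp, Pcgf5, Kdm2b, Bcor and E2f6 in Parental ESCs without OHT (26.3% of coding genes), in the same cells with OHT (22.5%) and in RING1B WT ESCs with OHT (31.4%), and at the first 4 of them in RING1B I53S ESCs (12.8%). A peak with OHT in Parental ESCs says only that the signal stood above its local background in that library, since the spike-in scaling of this antibody is not carried by the lists. At Bcor the H2AK119ub1 peaks covered 20911 bp in untreated Parental ESCs, 38177 bp in RING1B WT, 11123 bp in Parental and 11373 bp in RING1B I53S ESCs with OHT. At Kdm2b the lengths were 8557, 8115, 5798 and 2601 bp in that order. Covered length was thus lower in Parental and RING1B I53S ESCs with OHT than in the other 2 conditions at both genes, whereas at Pcgf5 it was 2197, 2284, 2604 and 784 bp.

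E2f6 carried one of the strongest PCGF6 peaks of each library. The peak lay over its start site, centred 126 bp after the annotated start in untreated Parental ESCs, with a score of 408, rank 11 of 7882. Its score was 311 in Parental ESCs with OHT (rank 29 of 4767), 285 in RING1B WT ESCs (rank 20 of 7357) and 165 in RING1B I53S ESCs with OHT (rank 26 of 2377). The rank thus stayed among the first 29 in all 4 lists. RYBP, which variant forms carry unless they hold its paralogue YAF2, had a peak at the same place with a score of 44.4 in untreated Parental ESCs (rank 55 of 2989), 24.7 in RING1B WT ESCs (rank 84 of 1177) and 11.7 in RING1B I53S ESCs with OHT (rank 429 of 697), and none in Parental ESCs with OHT. The last of these RYBP libraries has a title spelled unlike the others, PARE72, which was read as Parental with OHT for 72 h, and its list holds only 61 peaks. RING1B scored 54.9 at E2f6 in untreated Parental and 48.6 in RING1B WT ESCs. H3K27me3 covered 6583 bp there in untreated Parental ESCs, 6743 in RING1B WT, 4439 in Parental and 3910 in RING1B I53S ESCs with OHT.

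Rybp showed PCGF6 and H2AK119ub1 without a RING1B peak. The PCGF6 peak was centred 460 to 547 bp before the annotated start, over the sequence shown above, with scores of 60.4 in untreated Parental ESCs (rank 562 of 7882), 92.0 in Parental (rank 238 of 4767), 53.4 in RING1B WT (rank 1096 of 7357) and 40.3 in RING1B I53S ESCs with OHT (rank 291 of 2377). Rybp and E2f6 were the only 2 members with a PCGF6 peak in all 4 conditions. PCGF6 peaks lay at 7 members in untreated Parental and in RING1B WT ESCs (30.3% and 28.5% of coding genes), at 4 in Parental ESCs with OHT (21.2%) and at 2 in RING1B I53S ESCs with OHT (11.1%). The peak of PCGF6 at its own gene, Pcgf6, was weak, with scores of 18.8 in untreated Parental, 13.9 in Parental with OHT and 14.3 in RING1B WT ESCs. In RYBP lists, Pcgf5 held a peak besides E2f6 in untreated Parental ESCs only, with a score of 26.5, 2 of 10 members beside 13.0% of coding genes, and the RYBP gene itself held none.

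Bcor and Pcgf5, the genes with the largest rises, carried PRC1 and PRC2 in different layouts. Bcor spans 123616 bp on chromosome X, and its RING1B peaks in untreated Parental ESCs were 7, covering 25080 bp, at 1.5, 20.0, 22.9, 26.2, 31.6, 71.1 and 80.4 kb from the annotated start. Those at 31.6 and 80.4 kb lay by internal annotated starts, at 32.0 and 79.8 kb, and the highest score, 60.9, was at 71.1 kb, in an intron. With OHT, in RING1B WT ESCs, 7 RING1B peaks covered 17330 bp. Pcgf5 had 1 RING1B peak of 1921 bp at its upstream promoter with a score of 128, the highest of any member, and 48.5 in RING1B WT ESCs. The PCGF2 peak there scored 233 (rank 441 of 5186) and the CBX7 peak 220 (rank 1024 of 5140). PCGF6 had a peak at that place in untreated Parental (24.1), in RING1B WT (54.7) and in Parental ESCs with OHT (14.1), and at Bcor in the first 2 of these alone. By the downstream start of Pcgf5, 61.4 kb into the gene, untreated Parental ESCs had further peaks of MTF2 (score 87.7), SUZ12 (34.4), JARID2 (29.3), PCGF2 (18.3), EPOP (14.9) and H3K27me3, and none of RING1B.

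**Figure D4:**
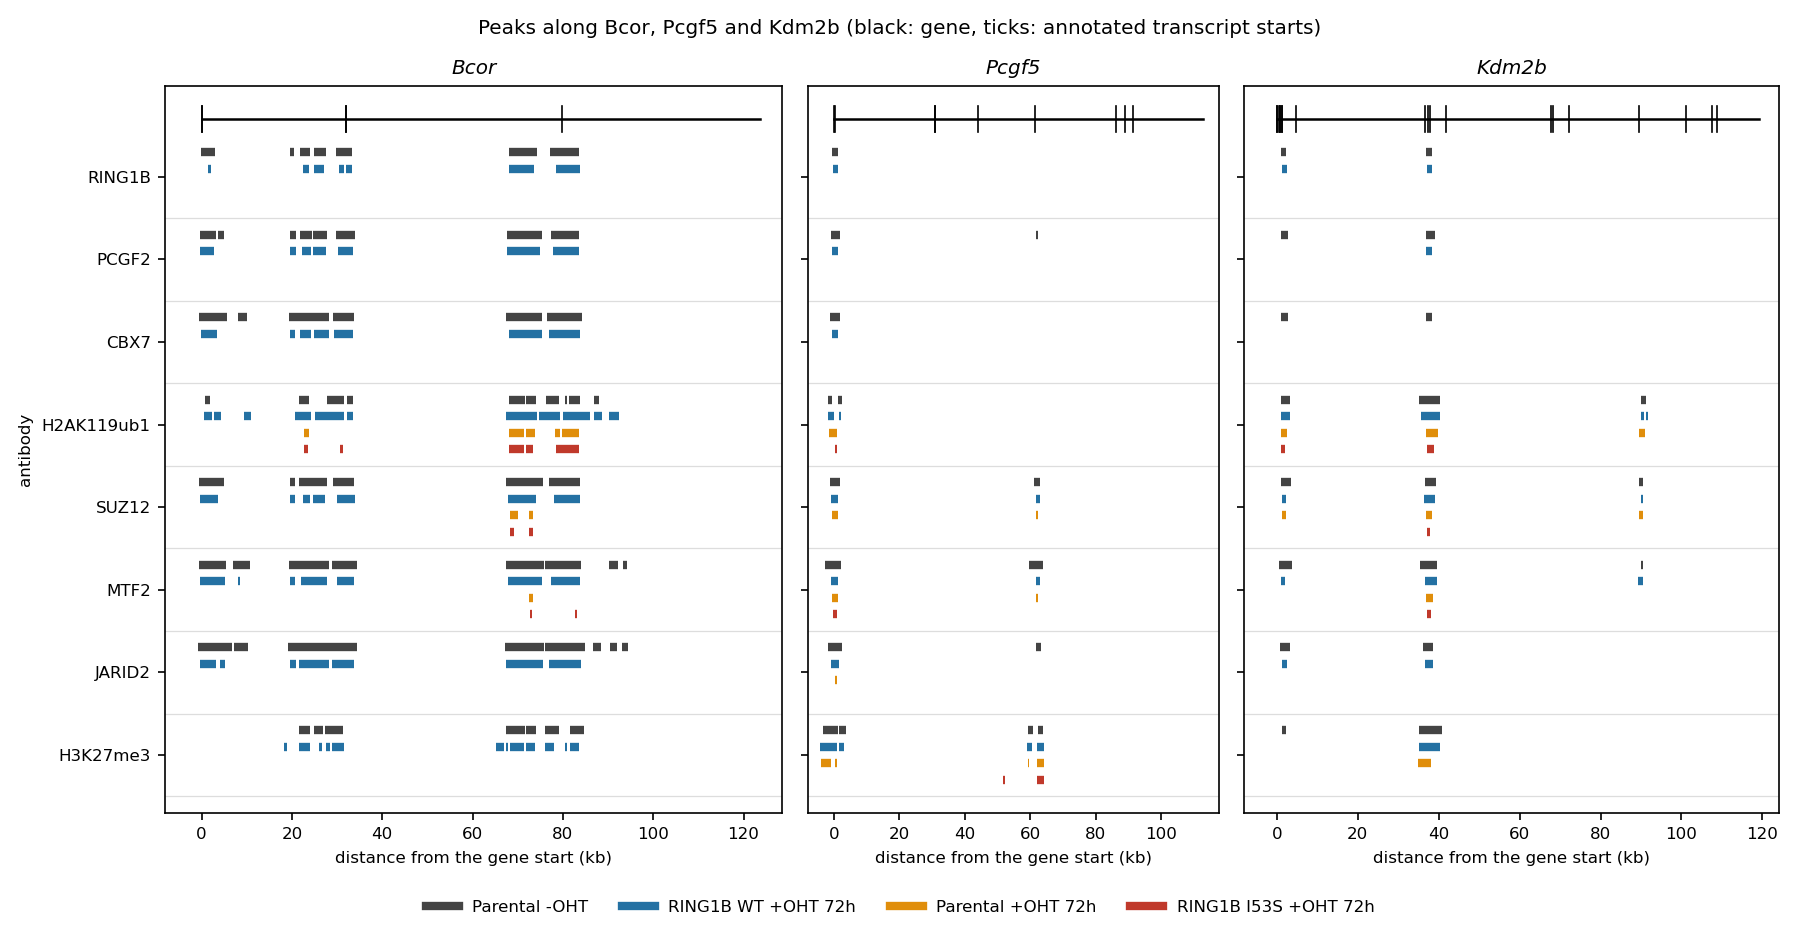
Peaks along Bcor, Pcgf5 and Kdm2b by antibody in Parental −OHT, Parental +OHT, RING1B WT +OHT and RING1B I53S +OHT ESCs at 72 h (replicate 1 where there are 2), with distance from the annotated start in kb on the horizontal axis and vertical lines at annotated starts. RING1B peaks are spread over Bcor in 7 blocks in untreated Parental ESCs and are a single block of 1921 bp at the start of Pcgf5, and none is drawn for Parental or RING1B I53S ESCs with OHT. The former lack RING1B itself.

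Kdm2b had RING1B peaks at 1.7 and 37.6 kb from its start in untreated Parental ESCs, the latter beside annotated starts at 37.3 and 37.8 kb, with scores of 26.6 and 49.7, and at 1.8 and 37.8 kb in RING1B WT ESCs with 13.2 and 21.2. H3K27me3 was centred at 37.9 kb there over 5682 bp, with another peak at 1.8 kb. The fall of Kdm2b RNA with OHT and the rises of Bcor and Pcgf5 RNA were thus found at genes that all held RING1B, PCGF2 and CBX7 peaks in untreated Parental ESCs, whereas L3mbtl2, which also fell, held none of these within 2.5 kb or 5 kb. Yaf2 held them as well, about 0.5 to 0.8 kb before its start, with a RING1B score of 30.3. The antisense transcript Gm47735 starts 11 bp before Pcgf5 and A930024E05Rik 469 bp after the start of Kdm2b, so peaks at these starts cannot be given to 1 gene.

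PRC2 was followed through SUZ12, a core subunit, through MTF2 and EPOP of PRC2.1, and through JARID2 and AEBP2 of PRC2.2. In untreated Parental ESCs SUZ12 peaks lay at 6 members (31.4% of coding genes), JARID2 peaks at 6 (34.8%), MTF2 peaks at 9 (54.6%), EPOP peaks at 5 (26.2%) and H3K27me3 peaks at 6 (30.5%). SUZ12 was left at 3 members in Parental ESCs with OHT (23.0%) and at 2 in RING1B I53S ESCs (14.4%), Kdm2b and Bcor, and MTF2 at 4 and 3 (27.6% of coding genes in Parental, 12.6% and 28.0% in the 2 RING1B I53S libraries). JARID2 was left at Pcgf5 alone in Parental ESCs after 72 h (5.62%) and at no member in 3 RING1B I53S libraries with OHT, 1 at 48 h and 2 at 72 h (1.80% to 4.36%), while all 3 RING1B WT libraries with OHT had JARID2 peaks at Yaf2, Pcgf5, Kdm2b, Bcor and E2f6 (19.9% to 20.3%). EPOP had peaks at 6 members in RING1B WT ESCs (26.4%) and at none in Parental and RING1B I53S ESCs with OHT (11.6% and 12.6%), and AEBP2 at Bcor alone, in RING1B WT ESCs (4.92%). H3K27me3 peaks were left at Pcgf3, Pcgf5, Kdm2b and E2f6 in Parental (25.6%) and at Pcgf3, Pcgf5 and E2f6 in RING1B I53S ESCs with OHT (24.1%), with none at Bcor.

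MTF2 and JARID2, with libraries at 48 h and 72 h, had lower scores at Pcgf5 and Bcor with OHT in Parental ESCs. The untreated Parental lists were long, MTF2 having 24485 peaks against 11623 in RING1B I53S and 13559 in RING1B WT ESCs without OHT. JARID2 had 14778 peaks against 6563 and 7446 in the same order, and the part of this library difference in the scores was not tested. At Pcgf5 the highest MTF2 score was 621 in untreated Parental ESCs, 69.1 after 48 h and 22.5 after 72 h of OHT. In RING1B I53S ESCs it was 97.7 without OHT, 34.0 after 48 h and 21.4 and 20.7 in the 2 libraries at 72 h, and in RING1B WT ESCs 148, 85.4, 172 and 75.4. The 2 RING1B WT libraries at 72 h thus differ by more than the step between times, and no trend is read from that line. At Bcor the MTF2 peaks covered 43713 bp in untreated Parental ESCs, 9575 after 48 h and 871 after 72 h, and 37715, 12942, 1025 and 6836 bp in RING1B I53S ESCs in the order above. JARID2 scored 633 at Pcgf5 in untreated Parental ESCs, 26.3 after 48 h and 10.3 after 72 h, and at Bcor 419 without OHT, with no peak at either time. Pcgf3, which passed no edgeR test with all libraries in, held H3K27me3 peaks centred at −1378 to −2542 bp from its start in 7 of the 8 H3K27me3 libraries, all but that of Parental MTF2 KO ESCs with OHT.

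In MTF2 KO ESCs fewer of the genes held PRC2 peaks. SUZ12 lay at Bcor alone in Parental MTF2 KO ESCs without OHT (12.2% of coding genes), at Pcgf5 and Bcor in RING1B WT MTF2 KO ESCs with OHT (13.6%), and at none in the Parental and RING1B I53S MTF2 KO ESCs with OHT (5.58% and 2.19%). At Bcor the SUZ12 peaks covered 12117 bp with a highest score of 23.3 in Parental MTF2 KO ESCs without OHT, against 32437 bp and 206 in Parental ESCs without OHT. H3K27me3 peaks were at Yaf2, Pcgf3, Pcgf5 and E2f6 in untreated Parental MTF2 KO ESCs (13.8%), at Pcgf3 and E2f6 in RING1B WT and RING1B I53S MTF2 KO ESCs with OHT (8.36% and 4.18%), and at none in Parental MTF2 KO ESCs with OHT, a list of 332 peaks. RNA of MTF2 KO ESCs was not analysed here.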

How the data were processed

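RNA was measured in 16 libraries and chromatin in 70 ChIP-seq libraries. The RNA-seq counts deposited by the authors came from STAR 2.7 on mm10 without multi-mapping reads, samblaster and featureCounts over exons of GENCODE M21 gene names, ignoring strand, and are raw. Isoforms are not separated, and all columns were matched to a sample. The peak lists deposited by the authors hold for each peak its MACS2 2.1.1 p-value as −log10, a score, called in each library on Bowtie 1.2.2 alignments (versions from the submitters' processing notes). The normalized table (counts over size factors), a table of the Eed fl/fl libraries with the same whole numbers as the raw counts, and the authors' comparison tables (log2 fold changes and adjusted p-values from DESeq2 1.20) were deposited too and not used.

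edgeR 4.0.16 in R 4.3.3 was used on the counts (TMM scaling, filterByExpr, robust quasi-likelihood fit with 11 contrasts over 12 libraries, and 1 over the 4 Eed fl/fl libraries). The Benjamini-Hochberg adjustment ran over all genes tested. The threshold was an adjusted p of 0.05, and the study's log2 threshold of 1.5 was added as an alternative. CPM were computed on TMM-scaled library sizes. Alternatives were DESeq2 1.42.0, limma 3.58.1 (voom), RLE scaling, other filters, a block for the replicate number, each comparison fitted alone and each library left out. For peaks they were windows of 1 kb and 5 kb in place of 2.5 kb, peak centres, promoters only (2.5 kb to either side of a start) and scores of at least 20. Peaks, sequences and figures used Python 3.11.15, numpy 2.4.6, pandas 2.3.3 and matplotlib 3.10.9. The fits and overlaps were tested on simulated data.

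All 10 genes are named in every comparison, together with up to 3 of each list of other subunits (the lowest adjusted p in Parental ESCs), the genes that overlap a member in exons, and the targeted genes; 1 gene that this rule names is not reported here. The genes and lists were chosen with earlier results of these data known.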

Additional observations from a re-analysis of the deposited data

Results flagged for a closer look

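The OHT effect on Bcor differed between lines by a test of the difference itself. The log2 fold change with OHT was 1.52 ± 0.19 in Parental and 0.10 ± 0.19 in RING1B WT ESCs (SE, n = 2 per group), a difference of −1.43 ± 0.27 (edgeR adjusted p = 0.006). Without RING1B WT +OHT replicate 1 the edgeR adjusted p was 0.0726 and without Parental +OHT replicate 2 it was 0.0648. Both treated RING1B WT libraries lay below both treated Parental ones, at 45.8 and 52.3 against 123.7 and 145 CPM.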

How the results depend on the processing

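Of the log2 fold changes of single genes recomputed under the alternatives, 547 kept their direction and their side of the threshold, 9 newly passed, 12 no longer passed and 14 changed sign, and the cause was not tested. With the log2 threshold of 1.5, the members past the test numbered 2 in Parental, 1 in RING1B I53S, 0 in RING1B WT against Parental with OHT, 0 in RING1B I53S against RING1B WT with OHT and 0 for RING1B WT against Parental ESCs in the size of the OHT effect. With 1 library left out as well these ranged from 1 to 2, 0 to 1, 0 to 1, 0 to 0 and 0 to 1. By the adjusted p alone, the 5 counts of 4, 3, 2, 2 and 1 ranged from 2 to 4, 2 to 5, 1 to 2, 1 to 4 and 0 to 1 with 1 library left out. Those that changed sign had values near 0. Pcgf1 in Parental ESCs was at 0.0138 with at least 10 counts in every library, and with 1 library left out ranged from −0.33 to 0.11. In RING1B I53S ESCs, with 1 library left out, Rybp ranged from −0.42 to 0.0052, Pcgf1 from −0.54 to 0.0084 and Pcgf6 from −0.27 to 0.51. In RING1B WT ESCs Yaf2 ranged from −0.065 to 0.13, Pcgf6 from −0.16 to 0.013 and Bcor from −0.0084 to 0.19. In Eed fl/fl ESCs Rybp was at −0.0826 by DESeq2, −0.0823 by RLE scaling and −0.0224 without a filter, and ranged from −0.26 to 0.29 with 1 library left out. Replicate numbers are shared by the groups, with correlations of same-numbered deviations of −0.0033 to 0.301 in the 12 libraries and 0.459 in Eed fl/fl, and with 2 replicates a group they are a number only. With a replicate block 1 member, L3mbtl2, passed in Eed fl/fl ESCs in place of 0 (edgeR adjusted p = 0.00052), where 10.6% of all genes passed and 7.25% were lower in place of 0.0119% in either direction, and Kdm2b in RING1B I53S (0.0337) and E2f6 in Parental ESCs (0.0475) passed as well. The count of members with a peak changed in 68 of 350 cases, 36 of them with scores of at least 20 and 21 within 5 kb, and by more than 1.5 times or to or from 0 in 25, and the pairs of a gene and a library with a peak numbered 149 to 242 over the 5 alternatives, where 212 did as reported. Peak lists hold no depth, and the lowest count of a member in an RNA library was 39, for Pcgf5.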
